A study of Drosophila melanogaster with 20 samples.

Results

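The 10 genes described here belong to the cAMP and calcium signalling route that flies use for learning, and they were followed across 4 genotypes in RNA from adult heads. They were taken by their FlyBase symbols and were, by role, the neuropeptide gene amn, Nf1, the adenylyl cyclase rut, the phosphodiesterase dnc, the protein kinase A (PKA) subunits Pka-C1, Pka-R1 and Pka-R2, the calcium-dependent kinase CaMKII, and the transcription factors CrebB and CrebA. All 10 were found among the 17558 gene IDs of the count table, and 9 of them were among the 10560 genes with a mean normalized count above 10, the level set for testing. The exception was amn.

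The study looked for RNA that depends on both FNE and RBP9, the cytoplasmic ELAV-type proteins of fly neurons, which bind RNA. ΔfneΔrbp9 flies lacked both proteins. The females carried Df(1)fneΔ over fneKOZ2 on the X chromosome, the males carried Df(1)fneΔ or fneKOZ2, and all were rbp9P2690/Df(2L)ED206, a null allele over a deficiency that also removes 1 copy of neighbouring genes. Δfne flies had the same X chromosomes alone, Δrbp9 flies had rbp9P2690/Df(2L)ED206 alone, and wild type was w1118. Every group had 5 libraries of total RNA, made from heads of untreated males and females 1 day after eclosion. For its comparison of ΔfneΔrbp9 with control heads, the paper states 5 independent replicates with equal numbers of male and female heads. The labels number the libraries but do not say further what separates them, so that p-values measure the spread between these libraries.

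In olfactory learning in flies, cAMP is made by Rutabaga (rut), an adenylyl cyclase that responds to calcium and calmodulin, and is broken down by the phosphodiesterase Dunce (dnc). PKA, held inactive by its regulatory subunits until cAMP binds them, then phosphorylates targets that include factors of the CREB family, while CaMKII is switched on directly by calcium and calmodulin and acts at synapses. Much of this work was done on the Kenyon cells of the mushroom body, the insect centre for odour memory.

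Total counts per library ranged from 10289950 to 25325636. Levels are given as CPM, a gene's count relative to the TMM-scaled total of its library (TMM, trimmed mean of M values). The targeted RNAs were low where the labels say so, with fne at 88.1 CPM in ΔfneΔrbp9 and 86.7 CPM in Δfne, against 194.3 CPM in wild type, and Rbp9 at 18.3 CPM in ΔfneΔrbp9 and 18.9 CPM in Δrbp9, against 482.4 CPM in wild type. Markers of neurons, Kenyon cells, glia, photoreceptors, fat body and muscle were detected in every genotype, and the summed yolk protein RNAs Yp1, Yp2 and Yp3, which females make, spread most within wild type, at 2062 to 18590 CPM. The RNAs roX1 and roX2, which males make, summed to 964 to 1022 CPM in Δrbp9, below the 1081 to 1284 CPM of wild type. ΔfneΔrbp9 and Δfne overlapped wild type in this sum. roX1 alone averaged 833.4 CPM in ΔfneΔrbp9 and 785.2 CPM in Δrbp9, against 973.0 CPM in wild type. roX2 averaged 240.0 and 210.4 CPM, against 220.6 CPM. In such bulk RNA, fewer cells of a type and less RNA per cell cannot be told apart.

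Of the 9 tested genes, CaMKII and Pka-R2 rose in ΔfneΔrbp9 heads. CaMKII was at 141% of its wild-type level in the double mutant and at 107% and 101% in Δfne and Δrbp9. Pka-R2 was at 120% in ΔfneΔrbp9 and at 118% in Δrbp9, against 106% in Δfne. CrebA separated the single mutants from each other, with a lower level in Δfne than in Δrbp9. Nf1, rut, dnc, Pka-C1, Pka-R1 and CrebB passed the test in no comparison, and no member of the 9 reached the study's fold change cutoff.

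**Figure D1:**
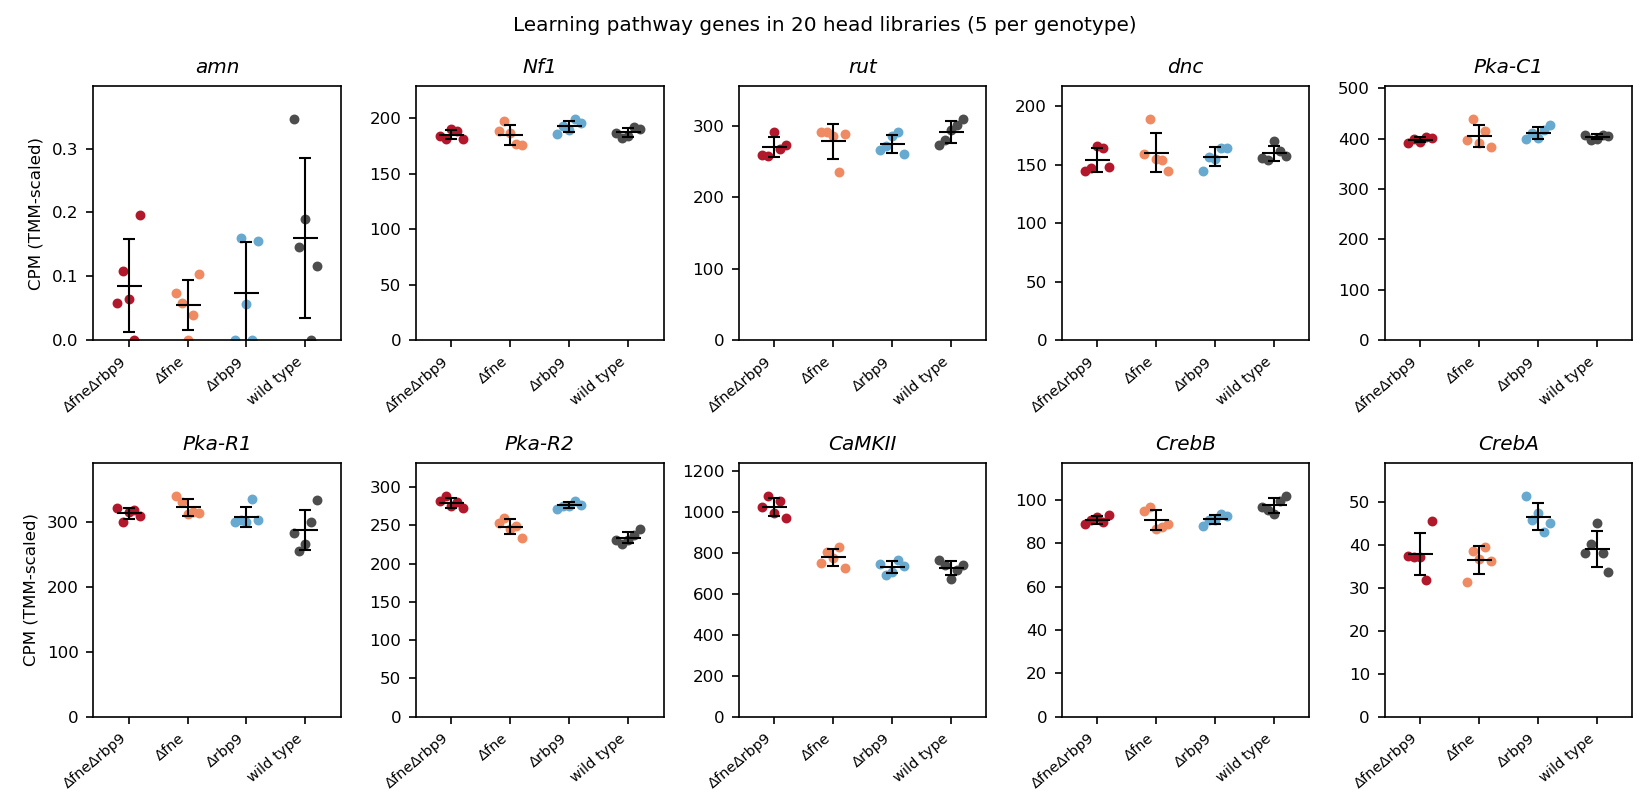
Level of each of the 10 genes in 20 head libraries, in TMM-scaled CPM on axes that start at 0, with 1 point per library, the mean as a bar and the SD as error bars (n = 5 per genotype). The 5 ΔfneΔrbp9 libraries lie above all the others for CaMKII, and the ΔfneΔrbp9 and Δrbp9 libraries lie above Δfne and wild type for Pka-R2.

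The test had a pair of thresholds. A gene passed at an adjusted p below 0.01 in edgeR's quasi-likelihood F-test with Benjamini-Hochberg adjustment over all 10560 genes, and it was called when its absolute log2 fold change was also above 0.5. In ΔfneΔrbp9 against wild type 2 of 9 members passed, both higher, beside 24.9% of all genes tested in either direction and 11.9% higher. In Δfne against wild type 0 of 9 passed, beside 19.1% of all genes, with 4 members at an unadjusted p below 0.05 in edgeR and 0 passing in DESeq2. In Δrbp9 against wild type 1 of 9 passed, higher, beside 22.9% in either direction and 11% higher. The median log2 fold change of the 9 members was -0.02, 0.00 and 0.03 in ΔfneΔrbp9, Δfne and Δrbp9, and that of all genes lay at 0.00, 0.01 and 0.00. The 3 comparisons share their wild-type libraries.

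Set against the single mutants, ΔfneΔrbp9 had 2 members passing relative to Δfne, both higher, beside 19% of all genes in either direction and 8.92% higher. It had 1 relative to Δrbp9, higher, beside 15.1% and 7.72%. Δfne against Δrbp9 gave 2 members, both lower in Δfne, beside 20.6% in either direction and 9.58% lower. The interaction, the log2 distance of the double mutant from both single effects added together, passed for 1 member, higher, beside 16.5% and 8.48% higher. No member was called in any of these comparisons by edgeR or by DESeq2 with all libraries in the fit, while the called share of all genes was 9.53% in ΔfneΔrbp9, 8.04% in Δfne and 8.05% in Δrbp9 against wild type, 6.81% and 4.66% in ΔfneΔrbp9 against Δfne and Δrbp9, 8.16% in Δfne against Δrbp9 and 8.97% for the interaction. The libraries of the 2 groups did not overlap for 3 of 9 members in ΔfneΔrbp9, 0 in Δfne and 1 in Δrbp9 against wild type, beside 23.1%, 17.5% and 21.2% of all genes. They did not overlap for 2 and 1 in ΔfneΔrbp9 against Δfne and Δrbp9 and for 2 in Δfne against Δrbp9, beside 22%, 22.1% and 23.6%.

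**Figure D2:**
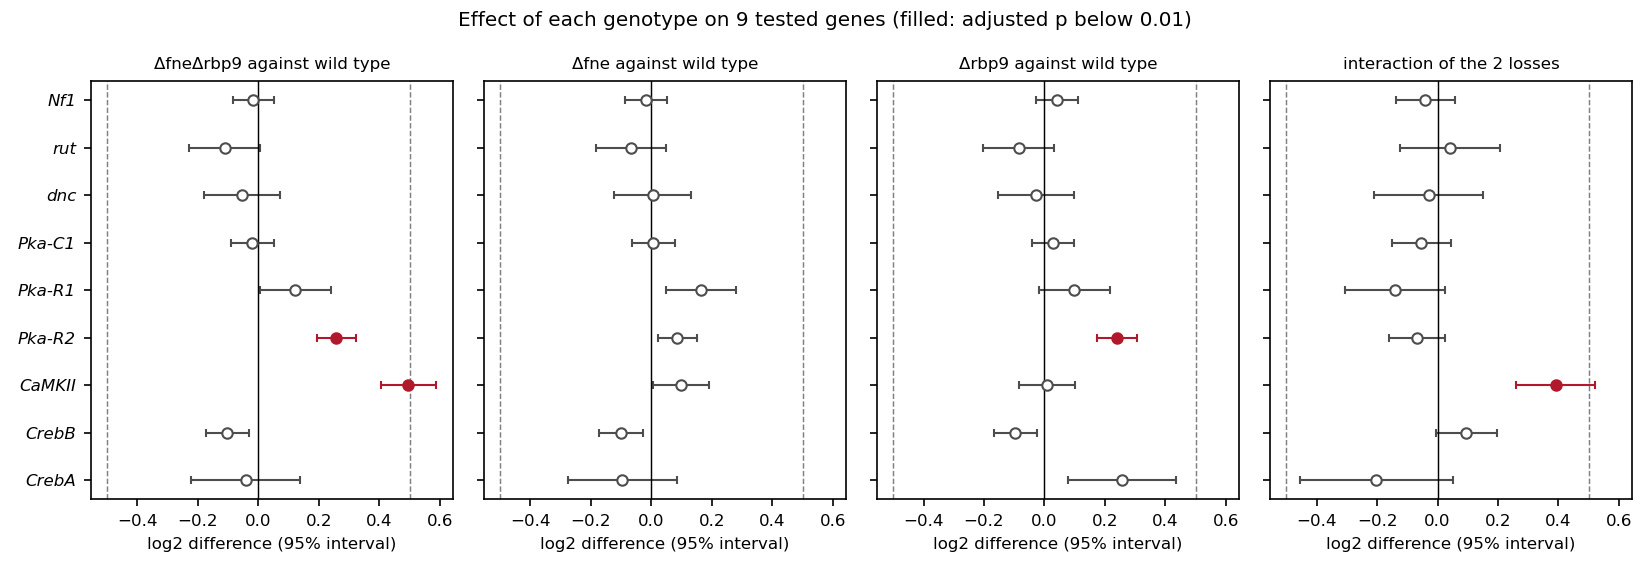
log2 difference of the 9 tested genes in each mutant against wild type and for the interaction of the 2 losses, with 95% intervals from edgeR, filled where the adjusted p was below 0.01 and with dashed lines at the cutoff of 0.5. CaMKII stands at 0.50 in ΔfneΔrbp9 and at 0.39 for the interaction, and Pka-R2 at 0.26 in ΔfneΔrbp9 and 0.24 in Δrbp9, while the intervals of Nf1, rut, dnc and Pka-C1 include 0 in all 4 panels.

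Between genes, levels were compared as RPKM, the CPM per kilobase of exon merged over all transcripts. In wild type CaMKII led with 158.2 ± 7.63 RPKM (SD, n = 5), 483rd of the 17252 genes with an annotated length. Pka-C1 followed at 70.5 ± 0.861 RPKM, Pka-R1 at 55.5 ± 5.95, Pka-R2 at 48.2 ± 1.56 and rut at 30.3 ± 1.55 RPKM. CrebB had 19.5 ± 0.680 RPKM, Nf1 18.6 ± 0.427, dnc 9.57 ± 0.388 and CrebA 8.68 ± 0.939 RPKM. The wild-type libraries of Pka-R1 and Pka-R2 overlapped on this scale, and so did those of CrebB and Nf1 and those of dnc and CrebA, whereas the other neighbours in the order were apart. dnc, with 17 annotated transcripts over 167.328 kb, has many alternative exons in its merged length of 16683 bases, which lowers its RPKM. In ΔfneΔrbp9 CaMKII reached 223.2 ± 9.41 RPKM, and Pka-R2, at 57.6 ± 1.31 RPKM, overlapped Pka-R1 at 60.5 ± 1.62 RPKM.

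At the start of the route stands amn (FBgn0086782, BDGP6, X:19886108-19890060, minus strand), which encodes the Amnesiac neuropeptide precursor. It was close to absent from these libraries. The raw counts were 1, 2, 1, 0 and 3 in ΔfneΔrbp9, 1, 1, 0, 1 and 2 in Δfne, 0, 3, 1, 0 and 3 in Δrbp9, and 7, 3, 3, 0 and 2 in wild type. No more than 3 counts were seen in any mutant library, a number that a floor of 3 counts does not tell from 0, so amn was not tested and no difference was detectable at this depth. Hers, on the opposite strand, shares 140 bases or 3.54% of the amn exon.

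Nf1 (FBgn0015269, 3R:25983013-25995737, plus strand) encodes neurofibromin, a Ras GTPase activator that flies also need for normal cAMP signalling. Its libraries read 184.3, 181.4, 190.7, 188.3 and 181.1 CPM in ΔfneΔrbp9 and 186.9, 182.2, 184.1, 192.4 and 190.7 CPM in wild type. Both sets cover nearly the same range. The log2 fold change was -0.02 in ΔfneΔrbp9 (95% interval -0.09 to 0.05), -0.02 in Δfne and 0.04 in Δrbp9.

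rut (FBgn0003301, X:14787478-14826073, minus strand) had 258.2, 256.8, 291.2, 268.0 and 273.4 CPM in ΔfneΔrbp9. The Δfne libraries had 291.7, 290.7, 285.2, 235.0 and 287.6 CPM, and wild type had 272.5, 280.1, 293.8, 300.6 and 309.1 CPM. Replicate 4 of Δfne was the lowest of these libraries, and the groups overlapped. In log2 terms rut differed from wild type by -0.11 in ΔfneΔrbp9 (95% interval -0.23 to 0.00, edgeR adjusted p = 0.128), -0.07 in Δfne and -0.09 in Δrbp9. The antisense lncRNA:CR45522 overlaps 420 bases of rut exon and averaged under 0.1 CPM in each genotype.

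The cyclase's counterpart dnc (FBgn0000479, X:3176440-3343767, plus strand) averaged 153.9 ± 10.3 CPM in ΔfneΔrbp9, 160.1 ± 16.9 CPM in Δfne and 156.6 ± 8.03 CPM in Δrbp9, against 159.7 ± 6.48 CPM in wild type (SD, n = 5 each). Its libraries overlapped in all comparisons, and its log2 fold changes against wild type lay between -0.05 and 0.00. The 95% interval in ΔfneΔrbp9 ran from -0.18 to 0.07. The 9 genes that overlap the span of dnc share no exon with it.

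Of the PKA subunits, Pka-R2 passed the test and Pka-C1 did not. Pka-C1 (FBgn0000273, 2L:9682315-9699297, minus strand), the main catalytic subunit, had the smallest spread within the double mutant and wild type of the 9 tested members. Its libraries read 392.5, 399.4, 393.1, 404.5 and 402.0 CPM in ΔfneΔrbp9 and 407.6, 396.7, 400.3, 407.5 and 406.4 CPM in wild type. The coefficient of variation was 1.34% and 1.22% in these groups, and the log2 fold change was -0.02 (95% interval -0.09 to 0.05).

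Pka-R2 (FBgn0022382, 2R:9993890-10026042, minus strand) encodes the type II regulatory subunit, which binds the catalytic subunit and places it at anchoring proteins. Its libraries read 281.8, 288.9, 275.6, 280.0 and 272.2 CPM in ΔfneΔrbp9 and 252.5, 260.1, 244.8, 249.8 and 233.9 CPM in Δfne. In Δrbp9 they read 270.9, 275.5, 275.5, 282.5 and 276.8 CPM, against 230.6, 225.9, 230.7, 236.9 and 245.5 CPM in wild type. Every ΔfneΔrbp9 and Δrbp9 library was above every Δfne and wild-type library, and the ranges of Δfne and wild type overlapped. Pka-R2 lies on arm 2R of the chromosome that carries rbp9P2690 or Df(2L)ED206 in ΔfneΔrbp9 and Δrbp9. Pka-C1 lies on the other arm, 2L. Loss of RBP9 and other differences carried by those chromosomes cannot be told apart here. The same holds for loss of FNE and the members rut, dnc and CrebB, which lie on the X chromosome that carries the fne alleles.

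Pka-R2 rose by a log2 fold change of 0.26 ± 0.0311 (SE) in ΔfneΔrbp9 (95% interval 0.19 to 0.32, edgeR adjusted p = 1.73e-06). It was 0.24 ± 0.0311 in Δrbp9 (adjusted p = 6.28e-06) and 0.09 ± 0.0311 in Δfne (adjusted p = 0.0435), the last above the threshold of 0.01. ΔfneΔrbp9 was higher than Δfne by 0.17 (adjusted p = 0.000256), and its difference from Δrbp9 was 0.02, with an interval from -0.05 to 0.08. Δfne was lower than Δrbp9, with a log2 difference of -0.15 (adjusted p = 0.00075). The interaction was -0.07 (interval -0.16 to 0.02, adjusted p = 0.279), so that no departure from the added single effects was detected.

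Relative to Pka-C1 in the same library, which needs no scaling between libraries, the count of Pka-R2 per kilobase was 0.8282 ± 0.02223 in ΔfneΔrbp9, 0.7223 ± 0.02058 in Δfne and 0.7921 ± 0.01729 in Δrbp9, against 0.6832 ± 0.01779 in wild type (SD, n = 5 each). The ratio was 1.212 times that of wild type in ΔfneΔrbp9 and 1.159 times in Δrbp9. Each gave an exact permutation p of 0.007937, two-sided and the smallest that 5 against 5 libraries allow, or 0.01587 after adjustment over 6 comparisons. In Δfne it was 1.057 times, with an exact p of 0.02381 and 0.03571 after adjustment. The ratio was chosen after the levels in these same libraries had been seen, so these p-values are not independent evidence.

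Several marker sums moved with the genotypes in which Pka-R2 was high. The 6 glial markers summed to 2818 to 2955 CPM in ΔfneΔrbp9 and 2772 to 3023 CPM in Δrbp9, both below the 3028 to 3524 CPM of wild type, while Δfne, at 3191 to 3530 CPM, overlapped it. The 6 muscle markers did the same, with 10607 to 12000 CPM in ΔfneΔrbp9 and 10842 to 12129 CPM in Δrbp9, against 12871 to 16437 CPM in wild type. The lack of overlap in each sum depended on 1 gene, singled out after the values were seen. Without Gs2, a glutamine synthetase gene, the other 5 glial markers summed to 1339 to 1364 CPM in ΔfneΔrbp9 and 1338 to 1436 CPM in Δrbp9, which overlapped the 1248 to 1489 CPM of wild type. Without Mhc, the muscle myosin heavy chain gene, the other 5 muscle markers had 5435 to 5943 CPM in ΔfneΔrbp9 and 5003 to 5820 CPM in Δrbp9, and overlapped the 4952 to 6801 CPM of wild type. Most of that remaining glial sum is nrv2, at 1050 CPM in ΔfneΔrbp9 and 1021 CPM in wild type, and it can hide shifts of the others. Of the 6 glial markers 0 passed higher and 4 lower in ΔfneΔrbp9, 0 and 2 in Δfne, and 1 and 2 in Δrbp9. Among all genes 24.9%, 19.1% and 22.9% passed in these comparisons in either direction. In ΔfneΔrbp9 the 4 were Gs2, repo, alrm and moody, and in Δrbp9 wrapper was the higher one. Of the 6 muscle markers Mhc alone passed, lower in ΔfneΔrbp9 and in Δrbp9. The part of these shifts in the level of Pka-R2 was not tested.

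Pka-R1 (FBgn0259243, 3L:20816118-20836048, plus strand), the type I regulatory subunit, had 321.3, 299.7, 315.2, 317.1 and 308.9 CPM in ΔfneΔrbp9 and 339.8, 329.9, 311.1, 314.1 and 313.5 CPM in Δfne. Δrbp9 had 298.5, 302.9, 298.7, 334.2 and 302.3 CPM, and wild type had 282.0, 254.7, 265.9, 298.9 and 333.2 CPM. Wild type was the widest group, and only its replicates 4 and 5 reached the range of the mutants. Relative to wild type Pka-R1 stood at a log2 fold change of 0.12 in ΔfneΔrbp9, 0.16 in Δfne and 0.10 in Δrbp9 (edgeR adjusted p = 0.0943, 0.0306 and 0.177). Without wild-type replicate 5 these became 0.19, 0.23 and 0.17 and all passed (adjusted p = 0.00326, 0.000695 and 0.00732). No other single removal made Pka-R1 pass. The lowest values over the removals were 0.08, 0.13 and 0.07, and the highest edgeR adjusted p were 0.262, 0.0925 and 0.383.

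CaMKII (FBgn0264607, chromosome 4:1035288-1053703, minus strand, 12 annotated transcripts) encodes the fly's calcium/calmodulin-dependent protein kinase II. Its libraries read 1022.6, 1078.9, 993.9, 1052.4 and 971.8 CPM in ΔfneΔrbp9 and 750.9, 802.9, 775.1, 830.4 and 724.6 CPM in Δfne. In Δrbp9 they read 746.6, 692.5, 707.7, 766.9 and 734.6 CPM, against 762.4, 740.6, 671.4, 713.4 and 740.9 CPM in wild type. The lowest ΔfneΔrbp9 library was above the highest library of any other genotype, and the other 3 groups overlapped one another.

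In ΔfneΔrbp9 CaMKII rose by a log2 fold change of 0.50 ± 0.0442 (SE) against wild type (95% interval 0.40 to 0.59, edgeR adjusted p = 2.71e-08), just short of the cutoff for a call. ΔfneΔrbp9 was also higher than Δfne, by 0.40 ± 0.0441 (adjusted p = 8.42e-07), and higher than Δrbp9, by 0.49 ± 0.0442 (adjusted p = 1.24e-07). The log2 fold change was 0.10 in Δfne (interval 0.01 to 0.19, adjusted p = 0.101) and 0.01 in Δrbp9 (interval -0.08 to 0.10, adjusted p = 0.916). The interaction was 0.39 ± 0.0623 (interval 0.26 to 0.52, adjusted p = 9.46e-05), the only one among the members to pass. In the test for any difference among the 4 genotypes CaMKII ranked 381st of 10560 genes (adjusted p = 1.59e-08), a test that 42.8% of all genes passed, with Pka-R2 (1.33e-06) and CrebA (0.00632) the other members below 0.01.

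With each of the 10 libraries of a comparison left out in turn, the CaMKII difference from wild type stayed between 0.47 and 0.51, with adjusted p no higher than 2.13e-07. It then lay above 0.5 without ΔfneΔrbp9 replicate 3 or 5 or wild-type replicate 1, 2 or 5, and CaMKII was then called. The difference from Δrbp9 ranged from 0.47 to 0.51, and CaMKII was called there without ΔfneΔrbp9 replicate 5 or Δrbp9 replicate 4. No setting ended its passing on p in either comparison.

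Neuronal markers overlapped between the genotypes in their sum. Of the 6 listed, para matched no symbol in the count table and was left out. The 5 markers elav, nSyb, Syt1, brp and Syx1A summed to 2363 to 2440 CPM in ΔfneΔrbp9, 2299 to 2584 CPM in Δfne and 2199 to 2447 CPM in Δrbp9, against 2234 to 2470 CPM in wild type. Single markers moved within that sum. In ΔfneΔrbp9 Syt1 passed higher, with a log2 fold change of 0.15 (edgeR adjusted p = 0.00667), while nSyb stood at -0.10 (adjusted p = 0.0195). No neuronal marker passed in Δfne or Δrbp9 against wild type. The count of CaMKII per kilobase relative to their summed count in the same library was 0.5894 ± 0.02809 in ΔfneΔrbp9, 0.4366 ± 0.02506 in Δfne and 0.4227 ± 0.02017 in Δrbp9, against 0.4199 ± 0.02196 in wild type. The ratio in ΔfneΔrbp9 was 1.404 times that in wild type (exact permutation p = 0.007937, two-sided, the smallest possible, and 0.01587 adjusted over 6 comparisons). In Δfne it was 1.04 times (exact p = 0.2937) and in Δrbp9 1.007 times (exact p = 0.8413). As with Pka-R2, the ratio was chosen after the levels had been seen, and its p-values are not independent evidence.

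**Figure D3:**
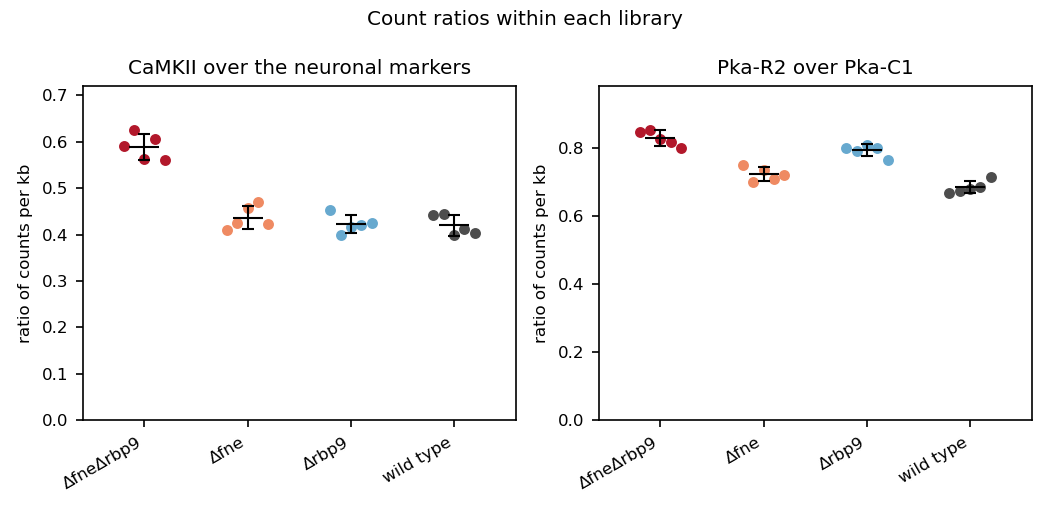
Count of CaMKII over the summed count of 5 neuronal markers (left) and of Pka-R2 over Pka-C1 (right), both per kilobase of exon within 1 library, with 1 point per library and the mean and SD (n = 5 per genotype). The ratio of CaMKII was 0.5616 to 0.6261 in ΔfneΔrbp9 and 0.3987 to 0.4448 in wild type, and that of Pka-R2 was 0.7986 to 0.853 in ΔfneΔrbp9, 0.7639 to 0.809 in Δrbp9 and 0.6672 to 0.7124 in wild type.

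Markers of Kenyon cells, where much of the learning machinery is concentrated, summed to 1312 to 1368 CPM in ΔfneΔrbp9, 1232 to 1346 CPM in Δfne and 1280 to 1330 CPM in Δrbp9, against 1191 to 1271 CPM in wild type. ΔfneΔrbp9 and Δrbp9 were above wild type with no overlap. Most of that sum is 1 of the 6 markers, mub, an RNA-binding protein gene, at 923.1 CPM in ΔfneΔrbp9 and 919.5 CPM in Δrbp9, against 827.5 CPM in wild type. It passed higher in both mutants, whereas sNPF passed lower in Δrbp9, with a log2 fold change of -0.17. Without mub the other 5 markers summed to 399.4 to 414.5 CPM in ΔfneΔrbp9, 404.4 to 429.6 CPM in Δfne and 387.4 to 395.7 CPM in Δrbp9, against 390.9 to 413.8 CPM in wild type, which overlapped. The part of Kenyon cell number in the levels of CaMKII and Pka-R2 was not tested.

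Of the factors at the end of the route, CrebB (FBgn0265784, X:18366357-18377864, plus strand) is the fly CREB studied in long-term memory. It had 88.8, 90.7, 92.1, 89.8 and 92.9 CPM in ΔfneΔrbp9 and 97.0, 95.4, 93.5, 99.6 and 102.1 CPM in wild type. The ΔfneΔrbp9 libraries were all below those of wild type, 1 of 3 members that did not overlap in that comparison, beside 23.1% of all genes. The log2 fold change of CrebB was -0.10 in each mutant (edgeR adjusted p = 0.0255 in ΔfneΔrbp9, 0.0311 in Δfne and 0.0343 in Δrbp9), which missed the threshold of 0.01. The opposite-strand gene por covers 344 bases, 6.89%, of CrebB exon and averaged 8.85 to 9.83 CPM.

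CrebA (FBgn0004396, 3L:15535395-15553214, plus strand) carries the CREB name but is best known as a regulator of secretory pathway genes. It had 37.5, 37.1, 37.3, 31.8 and 45.5 CPM in ΔfneΔrbp9 and 31.3, 38.5, 36.7, 39.6 and 36.3 CPM in Δfne. Δrbp9 had 51.5, 45.8, 47.5, 43.1 and 45.1 CPM, against 38.1, 40.3, 45.2, 38.0 and 33.6 CPM in wild type. All Δfne libraries were below all Δrbp9 libraries, and the other pairs of groups overlapped.

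Δfne was lower than Δrbp9 in CrebA, with a log2 difference of -0.35 ± 0.0853 (SE, edgeR adjusted p = 0.00361). This fell short of the threshold when replicate 1 of Δfne or replicate 1 of Δrbp9 was left out (adjusted p = 0.0122 and 0.013). Against wild type CrebA stood at 0.26 in Δrbp9 (adjusted p = 0.0249), at -0.10 in Δfne (adjusted p = 0.435) and at -0.04 in ΔfneΔrbp9 (adjusted p = 0.742). ΔfneΔrbp9 differed from Δrbp9 by -0.30 (adjusted p = 0.0145), a comparison that passed in DESeq2 (adjusted p = 0.00483) and with scaling by total counts alone (adjusted p = 0.00728). CrebA was the least abundant tested member, with 325 to 1005 counts per library.

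The genes whose log2 CPM ran closest to that of CaMKII over the 20 libraries were Tis11, CG2269 and CG15534, with Pearson r of 0.95, 0.947 and 0.93. These values describe the 20 libraries, which share their scaling, and the differences between genotypes enter them. Tis11, an mRNA decay factor that binds AU-rich elements, averaged 143 CPM in ΔfneΔrbp9, 116.6 CPM in Δfne and 110.2 CPM in Δrbp9, against 106.9 CPM in wild type. CG15534 was at 8.42 CPM in ΔfneΔrbp9 and under 0.1 CPM in the other 3 genotypes. Closest to Pka-R2 were CG42671, yellow-e and CG15414, with r of 0.941, 0.936 and 0.93. CG42671 averaged 287.3 CPM in ΔfneΔrbp9, 206 CPM in Δfne and 299.9 CPM in Δrbp9, against 184 CPM in wild type.

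Among the members themselves, the deviations of the libraries from their genotype means ran together most for Nf1 and dnc (r = 0.79) and for dnc and Pka-C1 (r = 0.71). Those of CrebA and Pka-R1 ran opposite (r = -0.60). For CaMKII and Pka-R2, the members that passed in ΔfneΔrbp9, the value was 0.49. All are descriptions over 20 libraries that share depth and scaling.

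CaMKII lies on chromosome 4, the small dot chromosome. Of the 19 tested genes within 100 kb on either side of it, 1 rose and 6 fell in ΔfneΔrbp9 against wild type. Their median log2 fold change was -0.11. On the whole of chromosome 4, 26 of 92 tested genes passed in that comparison, or 28.3% beside 24.9% of all genes, 10 of them higher. Relative to Δfne 27.2% of the 92 passed, beside 19% of all genes. Of these 25 genes 5 were higher in ΔfneΔrbp9, and the median of the chromosome was -0.06. Relative to Δrbp9 17 of 21 were higher (22.8% passing, beside 15.1%), with a median of 0.06. Against wild type 3 of 20 passing genes were higher in Δrbp9 (21.7% beside 22.9%) and 11 of 13 in Δfne (14.1% beside 19.1%). Between the single mutants 31 of 32 were higher in Δfne than in Δrbp9 (34.8% beside 20.6%), with a median of 0.11. The part of these shifts in the level of CaMKII was not tested. For CaMKII too, loss of FNE and RBP9 and other differences between the genotypes cannot be told apart. Around Pka-R2, 3 of 32 tested genes rose and 4 fell in ΔfneΔrbp9, and 2 rose and 1 fell in Δrbp9. Of all genes 24.9% and 22.9% passed in these comparisons. On arm 2R, 22.7% of 2130 tested genes passed in ΔfneΔrbp9 and 20.9% in Δrbp9.

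The wider pathway was read from 9 lists of 83 further genes, of which 81 matched a symbol in the count table and 77 were tested. In ΔfneΔrbp9 against wild type 7 of the 77 passed higher and 19 lower, beside 24.9% of all genes in either direction and 11.9% higher. Of the 77, 2 were called higher and 3 called lower, or 6.49% called beside 9.53% of all genes. In Δfne 6 passed higher and 13 lower, beside 19.1% of all genes in either direction, with 6.49% called beside 8.04%. In Δrbp9 7 passed higher and 16 lower, beside 22.9% in either direction and 11% higher. Here 7.79% were called beside 8.05%. The median log2 fold change over the lists was -0.02, -0.01 and -0.07. Of all genes that passed, 1257 of 2630 were higher in ΔfneΔrbp9 and 1162 of 2413 in Δrbp9. Lower genes thus made up a larger part of the passing genes in the lists than among all genes in these 2 mutants.

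Of the 5 tested genes in the list of PKA catalytic subunits and anchoring proteins, none passed in ΔfneΔrbp9 or Δfne and 1 passed in Δrbp9, higher. In the calcium and calmodulin list 0 rose and 5 fell of 12 tested in ΔfneΔrbp9, 1 rose and 4 fell in Δfne, and 1 rose and 1 fell in Δrbp9, all within the fold cutoff. Of all genes 24.9%, 19.1% and 22.9% passed in either direction, with 11.9% higher in ΔfneΔrbp9 and 11% higher in Δrbp9. Calmodulin itself (Cam), which activates both Rutabaga and CaMKII, averaged 1852 ± 59.5 CPM in ΔfneΔrbp9 and 2015 ± 181 CPM in wild type, and its log2 fold change of -0.12 in ΔfneΔrbp9, 0.10 in Δfne and -0.12 in Δrbp9 missed the threshold (edgeR adjusted p = 0.0913, 0.195 and 0.102). The cyclases ACXC and ACXD were called lower in every mutant, at mean levels that did not exceed 3.78 CPM. In ΔfneΔrbp9 ACXC averaged 0.668 CPM and ACXD 1.54 CPM, against 1.72 CPM and 3.78 CPM in wild type, with log2 fold changes of -1.37 and -1.29. The phosphodiesterase gene Pde11 fell in Δrbp9, with a log2 fold change of -0.58 (157.0 ± 10.7 CPM, against 234.0 ± 46.5 CPM in wild type).

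In each mutant the largest increase in the lists was that of Hr38. This gene, an activity-regulated nuclear receptor gene, averaged 22.2 ± 2.38 CPM in ΔfneΔrbp9, 25.2 ± 3.42 CPM in Δfne and 30.5 ± 3.49 CPM in Δrbp9, against 14.1 ± 1.30 CPM in wild type. Its log2 fold change was 0.66, 0.84 and 1.12 in these mutants, each called. sr (stripe), the fly relative of Egr genes, averaged 36.5 ± 2.50 CPM in ΔfneΔrbp9 and 40.2 ± 4.38 CPM in Δrbp9, against 24.4 ± 1.93 CPM in wild type, and its log2 fold change of 0.58 and 0.72 was called in both. In Δfne sr stood at 0.19 (edgeR adjusted p = 0.0558).

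A further 4 genes were called in 1 mutant each. The MAP kinase gene rl fell in all 3 mutants, with log2 fold changes of -0.34 in ΔfneΔrbp9, -0.84 in Δfne and -0.45 in Δrbp9, and was called in Δfne. orb2, which encodes a translation regulator needed for lasting memory, averaged 137.8 ± 5.77 CPM in ΔfneΔrbp9 and 163.5 ± 6.08 CPM in Δrbp9, against 205.0 ± 3.86 CPM in wild type, with log2 fold changes of -0.57 and -0.33. The protease gene teq fell in Δrbp9 by 0.89 on the log2 scale, and Galphaf, a G protein alpha subunit gene at 3.42 CPM in Δfne and 1.93 CPM in wild type, rose in Δfne by 0.83.

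**Figure D4:**
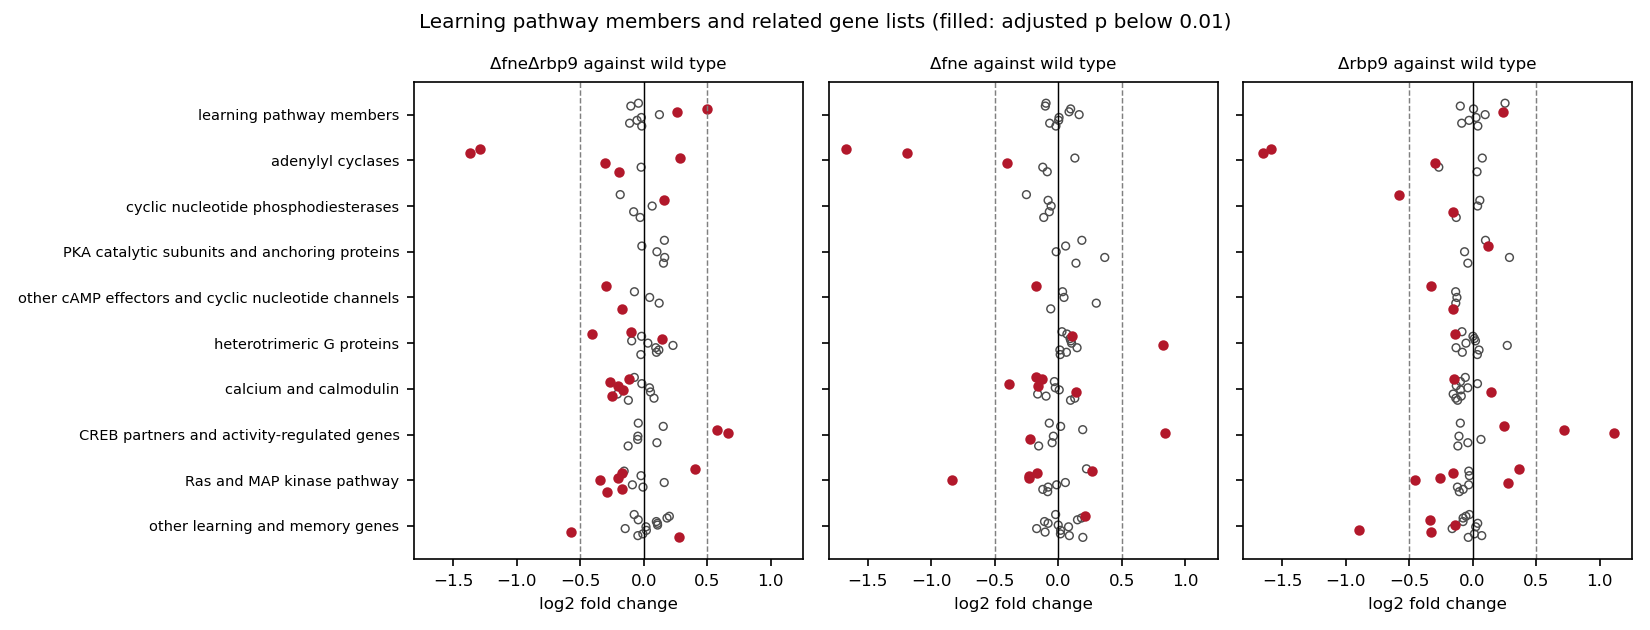
log2 fold change in each mutant against wild type (horizontal axes) for the 9 tested learning genes (top row) and the 77 tested genes of 9 related lists, 1 point per gene, filled where edgeR's adjusted p was below 0.01, with dashed lines at the cutoff of 0.5. The cyclases ACXC and ACXD lie lowest in all 3 panels, at -1.37 and -1.29 in ΔfneΔrbp9, and Hr38 is the highest point in Δrbp9 at 1.12.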

How the data were processed

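Raw read counts of 17558 gene IDs were deposited. The authors made them with featureCounts (Subread) through snakePipes from ribosome-depleted stranded libraries, on the dm6 genome with the Ensembl 96 annotation; STAR is also named in the submitters' processing notes. Versions, the strand setting and the handling of multiply mapping reads were not given in the sources used here. A further deposited table held the authors' own DESeq2 comparison (base means, log2 fold changes, standard errors, statistics and p-values) and was not used. The members and all lists were chosen with earlier results of these data known.

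Symbols, coordinates and exon lengths came from the BDGP6 annotation of Ensembl 115. It matched 17252 of 17558 IDs, and the other 306, with 3.76% of the counts, stayed in the tests. edgeR 4.0.16 with limma 3.58.1 in R 4.3.3 fitted all 20 libraries at once, with TMM factors, genes above a mean normalized count of 10, and two-sided quasi-likelihood F-tests adjusted by Benjamini-Hochberg over 10560 genes. The cutoffs, an adjusted p of 0.01 and an absolute log2 fold change of 0.5, were those of the study. Standard errors were the log2 fold change over the root of F. Correlations used log2 of CPM plus 0.5. The script was tested on simulated data. The 2 within-library ratios were chosen after seeing the data and were tested by exact permutation.

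All members were named. List genes were named where called in at least 1 mutant against wild type, up to 4 per list, and the 3 genes most like each of the 2 members with the smallest p for any difference were named too. Cam, mub, por, Hers and lncRNA:CR45522 were named for their relation to a member. Alternatives were DESeq2 1.42.0, total counts without TMM, no filter, only the groups compared, a replicate block and each library left out. Depth, at least 10289950 counts per library, gave CaMKII at least 10160 counts in each, and libraries of 1 group differed by more than counting error (chi-square per degree of freedom of 5.46 or more over 40 pairs).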

Additional observations from a re-analysis of the deposited data

Results flagged for a closer look

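Within groups of 5 libraries, 2 of 40 gene and genotype combinations had a library that stood apart, where chance gives about 5%. For rut, replicate 4 of Δfne had 235 CPM, and the nearest of its group had 285 CPM. For Pka-R1, replicate 4 of Δrbp9 had 334 CPM, and the nearest had 303 CPM.

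For CaMKII the difference between rbp9 mutants and flies with normal rbp9 was larger among fne mutants than among flies with normal fne. Loss of the proteins and other differences between these genotypes cannot be told apart here. The interaction was 0.391 on the log2 scale in edgeR's quasi-likelihood test (adjusted p = 9.46e-05). For CaMKII all 5 ΔfneΔrbp9 libraries were above all 5 Δfne libraries, whereas Δrbp9 and wild type overlapped.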

How the results depend on the processing

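Members passing kept their number under the settings that left out no replicate, except in ΔfneΔrbp9 against Δrbp9, where DESeq2 and total-count scaling gave 2 (CaMKII and CrebA) in place of 1. With 1 library left out, members passing ranged from 2 to 3 in ΔfneΔrbp9, 0 to 1 in Δfne and 1 to 2 in Δrbp9 against wild type, from 1 to 2 in ΔfneΔrbp9 against Δrbp9 and from 1 to 2 in Δfne against Δrbp9, and stayed at 2 in ΔfneΔrbp9 against Δfne and at 1 for the interaction. The members gained were Pka-R1 without wild-type replicate 5, CrebB in Δfne without its replicate 2 (adjusted p = 0.00887), and CrebA in Δrbp9 without wild-type replicate 3 (adjusted p = 0.0061) and in ΔfneΔrbp9 against Δrbp9 without ΔfneΔrbp9 replicate 5 (adjusted p = 0.00258). CaMKII crossed the fold cutoff in ΔfneΔrbp9 against wild type in 5 of 10 such fits and against Δrbp9 in 2 of 10. No passing value changed sign. The 40 sign changes were of values that never passed, none over 0.0574 in size.

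Over all genes, dropping the fold cutoff gave 2630, 2020 and 2413 genes in ΔfneΔrbp9, Δfne and Δrbp9 against wild type, 2004 and 1591 in ΔfneΔrbp9 against Δfne and Δrbp9, 2179 in Δfne against Δrbp9 and 1747 for the interaction. Total-count scaling gave 444 higher and 419 lower calls in Δrbp9 against wild type (364 and 486 with TMM), 244 and 237 in ΔfneΔrbp9 against Δrbp9 (293 and 199), and 419 and 559 for the interaction (489 and 458). The cause was not tested.

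Replicate numbers gave no clear pairing of the libraries, though a weak one was not excluded. Deviations of same-numbered libraries from their group means had a mean r of 0.03 over 30 pairs, with a range of -0.46 to 0.57. For differently numbered libraries the mean r was -0.007 over 120 pairs. Of the 20 libraries 6 correlated best with their own number. A replicate block changed no member's call (2, 0 and 1 passing in ΔfneΔrbp9, Δfne and Δrbp9 against wild type) and gave 994, 844 and 825 called genes, against 1006, 849 and 850 without it.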
